A study of Mus musculus with 6 samples.

Results

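The 31 genes described here carry a Wnt signal across the cell surface and towards β-catenin, and they were chosen by name. They comprised 8 Wnt ligands, 2 genes of ligand secretion, 2 extracellular inhibitors, 8 Frizzled receptors, 2 LRP co-receptors, 3 Dishevelled genes and 6 genes of the complex that marks β-catenin for destruction. The deposited gene table had 57010 rows, of which 16909 held a count in at least 1 library. By symbol, 23 of the 31 genes were found in the authors' table, and 8 were absent from it, namely Wnt3a, Wnt5a, Wnt5b, Wnt7a, Wnt7b, Wnt10a, Sfrp1 and Fzd6. The 8 were found in the count table through gene IDs in a reference list of gene names.

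Poly(A) RNA was sequenced from MLE-12 cells, an immortalised line of mouse lung epithelium. The line was derived from tumours of mice that carried a viral large T antigen under a surfactant protein C promoter. The I/R + Dex group had received 10 µM dexmedetomidine, a sedative that activates alpha-2 adrenergic receptors, for 12 h before hypoxia. The I/R group had not, and cells of both groups were held for 12 h in 1% oxygen and then reoxygenated for 4 h, as a culture model of ischaemia and reperfusion. Each group had 3 libraries, which the labels call independent biological replicates of the same batch, and cells without hypoxia were not analysed here. By its title, the study asked whether the drug limits ferroptosis, cell death driven by iron and lipid peroxidation, by way of β-catenin and its partner TCF4.

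Wnt proteins are lipid-modified ligands that bind a Frizzled receptor together with an LRP co-receptor. Without a ligand, a cytoplasmic complex of Axin, APC, casein kinase 1 and glycogen synthase kinase 3 phosphorylates β-catenin, and the ubiquitin ligase subunit encoded by Btrc then targets it for degradation. Ligand binding recruits Dishevelled and Axin to the membrane, and β-catenin accumulates and enters the nucleus, where it binds TCF factors. In the lung this pathway is known for its part in airway and alveolar development and in the renewal of alveolar type II cells.

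Total counts ranged from 2333546 to 2586743 in I/R + Dex libraries and from 2607952 to 2941989 in I/R libraries, so that 3 counts, taken as the limit that a count of 0 allows, corresponded to 1.02 to 1.29 CPM, which are counts divided by the library total and rescaled. Markers went against the labelled cell type. Of 10 epithelial markers, 6 had 0 counts in all libraries, among them Krt8 and Krt18, and the list summed to 0.0 to 2.32 CPM in I/R + Dex and 1.53 to 2.72 CPM in I/R. Of 10 alveolar type II markers, 6 were at 0, with sums of 6.0 to 17.4 CPM in I/R + Dex and 8.5 to 20.3 CPM in I/R. Abca3, the only 1 of them with enough counts to be tested, averaged 10.9 CPM in I/R + Dex and 12.3 CPM in I/R. All 10 fibroblast markers had counts, mostly in Vim and Fn1, with sums of 913 to 1110 CPM in I/R + Dex and 886 to 1040 CPM in I/R. Of these 10, 7 had enough counts to be tested, while Pdgfrb, Lum and Dcn had only 4, 2 and 28 counts over all libraries. Endothelial sums were 5.78 to 11.6 CPM in I/R + Dex and 2.3 to 7.29 CPM in I/R with 1 of 8 markers at 0, and leukocyte sums were 27.9 to 38.3 CPM in I/R + Dex and 23.0 to 29.9 CPM in I/R with 2 of 10 at 0. The ranges of the groups overlapped in all 5 lists, and their part in the results was not tested.

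The cells expressed the machinery that receives a Wnt signal and degrades β-catenin, while Wnt ligand transcripts were barely counted in either group. Both secretion genes, 6 of 8 Frizzled genes, both LRP genes, all 3 Dishevelled genes and all 6 genes of the destruction complex had enough counts to be tested, which makes 19 of 31. None of the 8 ligands and none of the 2 extracellular inhibitors had. Another 10 genes had some counts but were below the filter on low counts (filterByExpr in edgeR), and Wnt3a and Wnt7a had 0 counts in all 6 libraries. Depending on the rule for an expressed gene, the number was 20 with a count in all 6 libraries, 24 with at least 10 counts in total, 19 with a mean of at least 1 FPKM (fragments scaled to gene length and library size) and 21 with at least 1 CPM in 3 libraries.

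With dexmedetomidine, none of the tested genes passed the threshold, an adjusted p of 0.05. The quasi-likelihood test of edgeR across 7412 genes, with Benjamini-Hochberg adjustment, called 0 of the 19, and DESeq2 called none of them either. Over all genes edgeR called 5, or 0.0675%, of which the 3 higher in I/R + Dex were 0.0405% and the 2 lower were 0.027%. Among the 19 genes 0 had an unadjusted p under 0.05, against 3.39% of all tested genes, and the smallest was 0.0885, for Btrc. The log2 fold changes, which are positive where I/R + Dex was higher, ran from -0.41 to 0.66 with a median of 0.00, 10 above 0 and 9 below, beside a median of -0.01 over all tested genes. Each of the 19 had an edgeR adjusted p of 1.0.

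The precision of these estimates differed between genes. The 95% interval of the log2 fold change had a median half-width of 0.48, the narrowest 0.19 and the widest 0.95. For 18 of the 19 genes the interval lay within a 2-fold change in either direction, the exception being Fzd5, and for 10 it lay within a 1.5-fold change. Over all tested genes 60.4% had an interval within a 2-fold change. In RNA from whole cultures, fewer cells with a transcript and less RNA per cell cannot be told apart.

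Groups that do not overlap were counted as a description. The CPM of the groups did not overlap for 3 of the 19 genes, with Axin1 higher and Lrp5 and Btrc lower in I/R + Dex, beside 9.32% of all tested genes, 4.38% with I/R + Dex higher and 4.94% with it lower. None of the 3 passed the threshold.

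**Figure D1:**
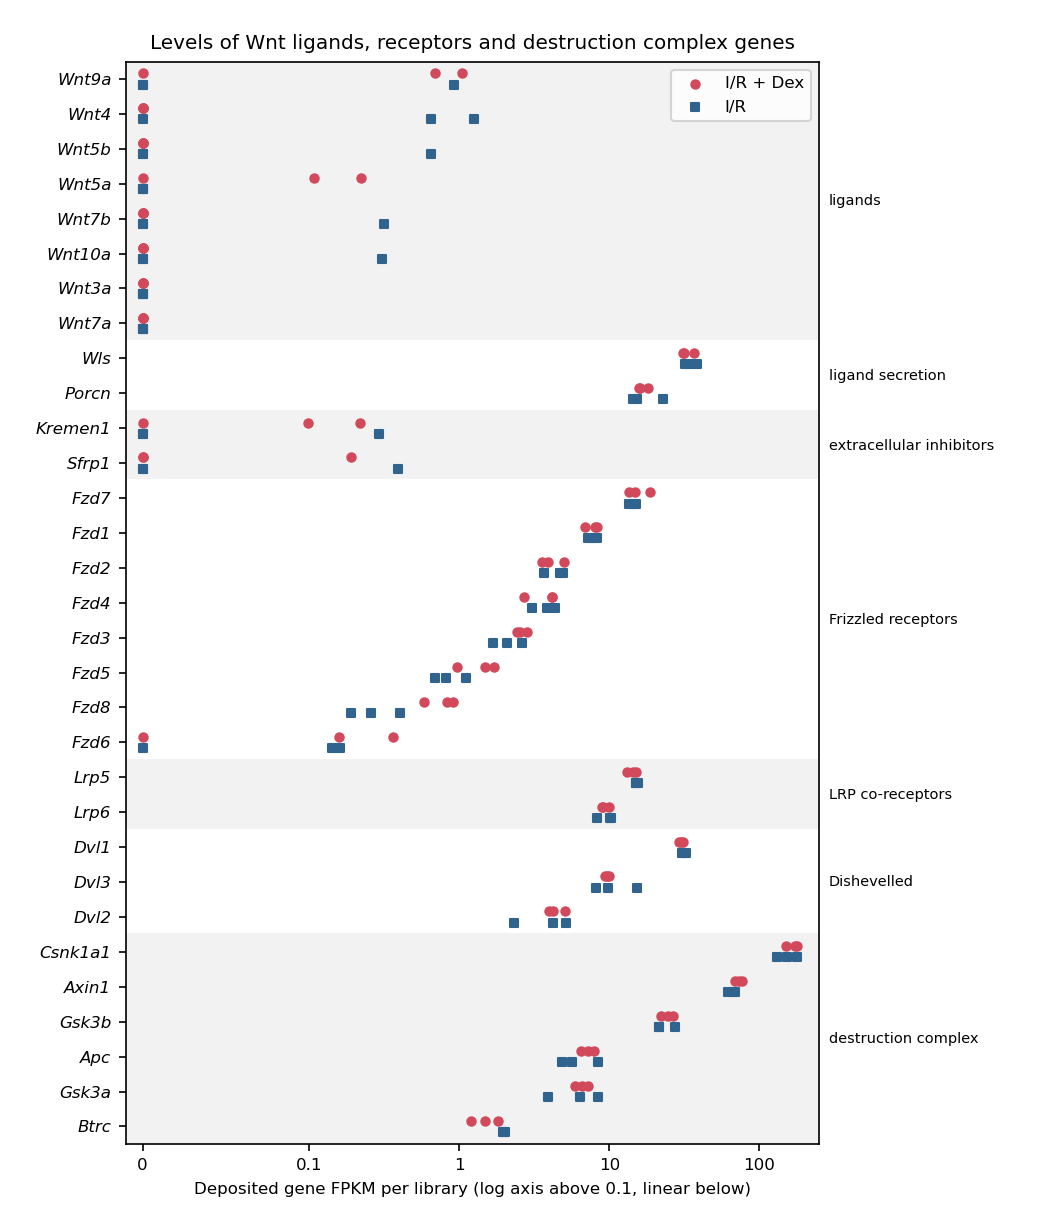
Deposited FPKM of each of the 31 genes in each library, with I/R + Dex libraries as red circles above and I/R libraries as blue squares below, ordered by role and by level within a role; the axis is logarithmic above 0.1 and linear below. Ligands and extracellular inhibitors sit at 0 in most libraries and at no more than 1.26 FPKM elsewhere, whereas the 19 tested genes average 1.13 to 160.5 FPKM over all libraries, with overlapping CPM between the groups for 16 of them.

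Ligand transcripts were nearly undetected. The 8 listed ligands together had 6, 12 and 2 counts in the I/R + Dex libraries and 16, 22 and 4 counts in the I/R libraries, 62 counts in all. The sums of the groups overlapped. The counts of the 8 Frizzled genes, which are not scaled to gene length, were 531, 428 and 444 in I/R + Dex and 432, 543 and 451 in I/R.

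Wnt4, a ligand of kidney and reproductive tract development, had 0 counts in each I/R + Dex library, and 14, 8 and 0 counts in I/R. I/R replicate 3 was therefore like the I/R + Dex libraries, and the groups overlapped. Without a filter, edgeR gave Wnt4 an unadjusted p of 0.0172 and an adjusted p of 0.858, and the fold depends on the prior count. Wnt9a, which in the mouse acts in joint and liver development, had 6, 8 and 0 counts in I/R + Dex and 0, 9 and 0 counts in I/R. Each group held a library at 0 and a library with 8 or 9 counts.

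Wnt5a, the prototype of ligands that act without β-catenin, had 0, 4 and 2 counts in I/R + Dex and 0 counts in each I/R library. Its relative Wnt5b had 5 counts in I/R replicate 2 alone. Wnt7b, a ligand of the developing lung epithelium, had 4 counts in I/R replicate 3 alone, and Wnt10a, a ligand of tooth and skin development, had 2 counts in I/R replicate 1 alone. Wnt3a, the standard ligand for stabilising β-catenin in culture, and Wnt7a had none. A count of 0 in these libraries allowed up to 1.02 to 1.29 CPM for counting error only, so a level below that in a library at 0 was not detectable at this depth. No comparison of the groups can rest on genes counted in a single library.

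Of the extracellular inhibitors, Sfrp1, a secreted protein that binds Wnt ligands, had 0, 0 and 2 counts in I/R + Dex and 0, 5 and 0 counts in I/R. Kremen1, a transmembrane receptor for Dickkopf proteins that helps remove LRP6 from the surface, had 2, 0 and 4 counts in I/R + Dex and 6, 0 and 0 counts in I/R. Both genes had libraries at 0 in both groups.

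**Figure D2:**
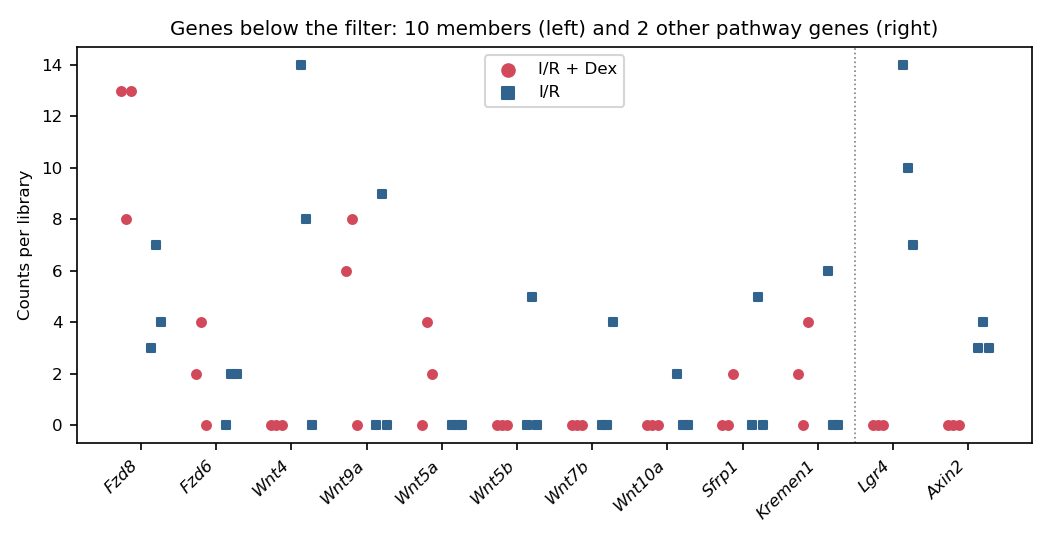
Counts per library of the 10 listed genes below the filter on low counts and, right of the dotted line, of the pathway genes Lgr4 and Axin2, chosen after their values were seen, with I/R + Dex as red circles left of I/R as blue squares for each gene. Among the 10, only Fzd8 separates the groups, at 8 to 13 counts in I/R + Dex against 3 to 7 in I/R, and the other 9 have a library at 0 in both groups.

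The genes that prepare ligands for secretion were expressed well above the ligands. Wls, the membrane carrier that takes lipidated Wnt proteins to the cell surface, averaged 33.2 ± 3.06 FPKM in I/R + Dex and 34.9 ± 3.38 FPKM in I/R (SD, n = 3 each), the third highest of the 31 genes. The gene is on chromosome 3 (GRCm39, 159545309 to 159641659). Its libraries had 281, 269.5 and 319 CPM in I/R + Dex and 305, 338 and 281 CPM in I/R. The highest library was in I/R and the lowest in I/R + Dex, but the groups overlapped, and the log2 fold change was -0.08 with a 95% interval from -0.32 to 0.16.

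Porcn encodes porcupine, the acyltransferase that attaches the lipid to Wnt proteins, and the gene is on chromosome X (GRCm39, 8060087 to 8072764). It averaged 16.6 ± 1.3 FPKM in I/R + Dex and 17.5 ± 4.58 FPKM in I/R (SD, n = 3 each). Its libraries had 54.9, 46.3 and 47.9 CPM in I/R + Dex and 44.1, 68.0 and 46.0 CPM in I/R. I/R replicate 2 stood above all others, and the I/R + Dex values lay inside the range of I/R. The log2 fold change was -0.08, with a 95% interval from -0.58 to 0.41.

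Porcn is known for coding variants that differ by short alternative exons, and its counts moved between them from library to library. The 3 coding transcripts with most of its counts are shown over a stretch in which they differ, as transcript sequence read 5′ to 3′ from GENCODE vM21 transcripts of the build GRCm38, with 12 constant bases on each side in lower case and the alternative exons in capitals.
ENSMUST00000089402: actccttcgcaagtggctacgagc
ENSMUST00000082320: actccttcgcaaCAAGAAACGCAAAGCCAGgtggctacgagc
ENSMUST00000077595: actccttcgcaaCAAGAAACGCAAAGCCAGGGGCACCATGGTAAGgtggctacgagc
The first form skips both exons and encodes 450 residues, the second holds an exon of 18 bases and encodes 456, and the last holds a further exon of 15 bases and encodes 461. Their full lengths, 1839, 1883 and 1872 bases in the order shown, differ by other amounts than these exons, so the transcripts also differ outside the stretch.

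The form with the 18-base exon, ENSMUST00000082320, held 66.2% of the gene's counts, at 101, 105 and 116 counts in I/R + Dex and 87, 121 and 0 counts in I/R. The form without either exon, ENSMUST00000089402, had 31, 0 and 0 counts in I/R + Dex and 0, 54 and 117 counts in I/R. I/R replicate 3 thus had all its coding counts on the form without the exon and none on the form with it. The groups overlapped for both forms, and edgeR across all transcripts gave an adjusted p of 1.0 and unadjusted p values of 0.598 and 0.344. ENSMUST00000077595 had 7, 0 and 0 counts in I/R + Dex and 0, 20 and 0 counts in I/R. The forms share most of their sequence, and the sources used here do not say how reads were split between transcripts.

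Of the Frizzled receptors, the membrane-spanning proteins that bind Wnt ligands, Fzd7 had the highest level. By gene FPKM it made up 39.3% to 48.7% of the summed level of the 8 genes in I/R + Dex libraries and 41.7% to 43.4% in I/R libraries. Fzd1 followed with 18.1% to 23.5% in I/R + Dex and 20.5% to 25.4% in I/R. Fzd2 and Fzd4 came next, with shares that overlapped in both groups, and Fzd3 lay below Fzd2 in both. The sum of all 8 was 34.2 to 38.3 FPKM in I/R + Dex and 32.5 to 35.0 FPKM in I/R.

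Fzd7 (chromosome 1, 59521583 to 59526114) had 85.4, 66.0 and 60.3 CPM in I/R + Dex and 62.5, 67.6 and 65.2 CPM in I/R. I/R + Dex replicate 1 stood above the other 5 libraries, which lay between 60.3 and 67.6 CPM. The log2 fold change was 0.12, with a 95% interval from -0.26 to 0.50.

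Fzd1 (chromosome 5, 4803839 to 4808035) had 29.4, 34.3 and 33.5 CPM in I/R + Dex and 35.3, 29.9 and 32.2 CPM in I/R. The group means were nearly equal, 32.4 ± 2.63 CPM in I/R + Dex and 32.5 ± 2.69 CPM in I/R (SD, n = 3 each). Its log2 fold change was 0.00, with a 95% interval from -0.41 to 0.42. Fzd2 (chromosome 11, 102495222 to 102498884) had 13.1, 18 and 14.0 CPM in I/R + Dex and 18.4, 17.0 and 13.4 CPM in I/R. Its interval ran from -0.74 to 0.53. For both receptors the groups overlapped widely.

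Fzd5, a receptor known in the mouse for its role in yolk sac vessels and the eye, had the lowest level of the 19 tested genes and the largest fold change. It lies on chromosome 1 at 64769717 to 64776910. Its counts were 27, 27 and 16 in I/R + Dex and 15, 14 and 20 in I/R, or 9.54 ± 2.60 CPM in I/R + Dex and 6.06 ± 1.48 CPM in I/R (SD, n = 3 each). I/R + Dex replicate 3 lay below I/R replicate 3, so the groups overlapped. Its log2 fold change was 0.66 (95% interval -0.29 to 1.61), and its unadjusted edgeR p was 0.146. In the reference annotation Fzd5 shares 1233 exon bases with a gene on the opposite strand, Gm38058, which had 0 counts.

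Fzd3 (chromosome 14, 65429898 to 65499912), a receptor of the planar polarity branch that guides axons in the mouse, had 32.9, 30.4 and 35.9 CPM in I/R + Dex and 21.9, 33.3 and 26.4 CPM in I/R. The lowest 2 values were both in I/R, while I/R replicate 2 lay within the I/R + Dex range. The log2 fold change was 0.28, with a 95% interval from -0.23 to 0.80. Fzd4, the receptor of the retinal ligand norrin, had 73, 42 and 67 counts in I/R + Dex and 54, 85 and 67 counts in I/R, and a log2 fold change of -0.02.

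Fzd8, below the filter, was the only 1 of the 10 sparse genes whose groups did not overlap, beside 5.46% of the 9497 genes below the filter with a count, 3.31% with I/R + Dex higher and 2.16% with it lower. It had 13, 8 and 13 counts in I/R + Dex and 3, 7 and 4 counts in I/R, which is 4.61 ± 1.04 CPM in I/R + Dex and 1.69 ± 0.629 CPM in I/R (SD, n = 3 each). Its share of the summed Frizzled FPKM was 1.63% to 2.65% in I/R + Dex and 0.583% to 1.14% in I/R, so that it contributed little to the receptors as a whole. When all genes were fitted without a filter, edgeR gave it a log2 fold change of 1.43 (95% interval -0.38 to 3.23), an unadjusted p of 0.114 and an adjusted p of 0.858. With a filter of 1 CPM in 3 libraries the unadjusted p was 0.0568 and the adjusted p 1.0. The difference did not pass the threshold in either fit. In the authors' deposited table the Fzd8 transcript had an unadjusted p of 0.0239 and an adjusted p of 0.617. Fzd6, a planar polarity receptor that orients hair in the mouse, had 2, 4 and 0 counts in I/R + Dex and 0, 2 and 2 counts in I/R, and its groups overlapped.

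**Figure D3:**
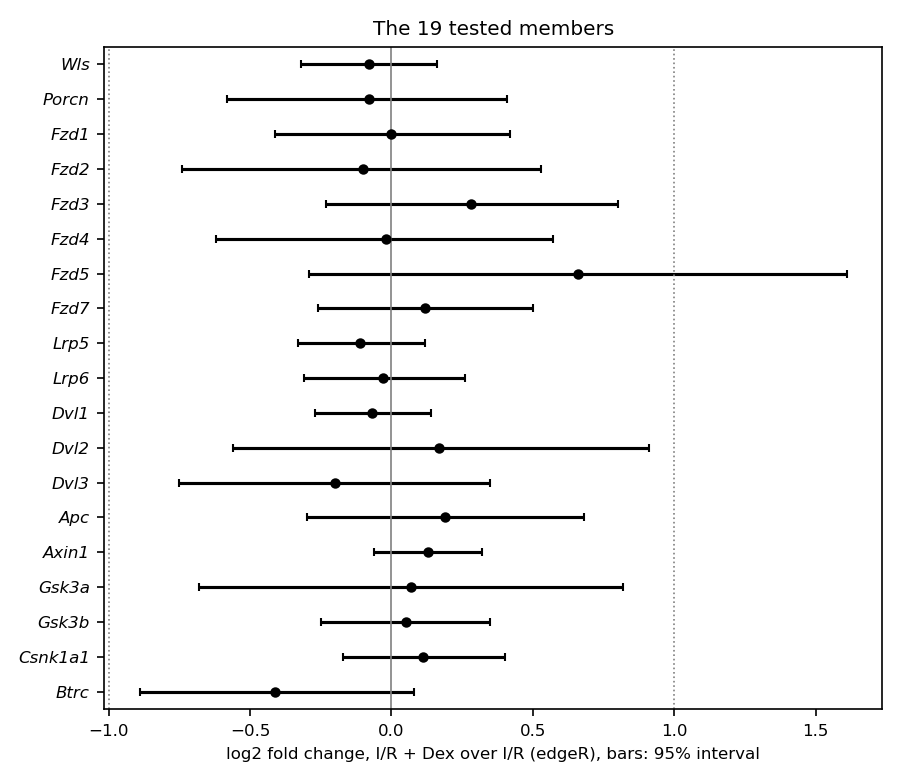
Log2 ratio of I/R + Dex to I/R for the 19 tested genes in role order (points) with 95% intervals from edgeR (bars); dotted lines mark a 2-fold change in either direction. All 19 intervals include 0, and the interval of Fzd5, from -0.29 to 1.61, is the only one that crosses a dotted line.

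Both co-receptors that bind Wnt and Axin were expressed, with Lrp5 above Lrp6 by gene FPKM in every library. Lrp5 (chromosome 19, 3634828 to 3736561) averaged 14.2 ± 0.918 FPKM in I/R + Dex and 15.2 ± 0.336 FPKM in I/R, and Lrp6 (chromosome 6, 134423439 to 134543876) averaged 9.35 ± 0.577 FPKM in I/R + Dex and 9.49 ± 1.11 FPKM in I/R (SD, n = 3 each).

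Lrp5 had 141, 144 and 127 CPM in I/R + Dex and 149, 151 and 146 CPM in I/R. The I/R values were all above the I/R + Dex values, by a narrow margin. The log2 fold change was -0.11, with a 95% interval from -0.33 to 0.12. Lrp6 had 138, 122 and 122 CPM in I/R + Dex and 114, 139 and 138 CPM in I/R, with overlapping groups, and an interval from -0.31 to 0.26.

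Part of the Lrp5 counts lay on a transcript annotated as a target of nonsense-mediated decay, ENSMUST00000177330, with 85, 73 and 154 counts in I/R + Dex and 81, 152 and 0 counts in I/R. The coding transcript ENSMUST00000025856 held 75.5% of the counts, at 280, 263 and 154 in I/R + Dex and 308, 292 and 380 in I/R. The coding counts were lower in every I/R + Dex library, but after scaling to library totals the groups overlapped for both transcripts, and I/R replicate 3 was highest on the coding form and at 0 on the other. The share of Lrp5 in both co-receptors depended on the FPKM scale. By gene FPKM it was 58.9% to 62.4% in I/R + Dex and 59.8% to 64.7% in I/R. With transcript FPKM summed it was 44.7% to 60.6% in I/R + Dex and 61.9% to 67.5% in I/R. The shares separated the groups on the second scale alone, and the cause was not tested.

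Dishevelled proteins pass the signal from Frizzled to the destruction complex, and Dvl1 was the main gene of the family. By gene FPKM, Dvl1 made up 67.3% to 68.5% of the family in I/R + Dex libraries and 64.1% to 70.8% in I/R. Dvl3 followed with 21.7% to 22.1% in I/R + Dex and 17.9% to 31.2% in I/R. Dvl2 had 9.39% to 11% in I/R + Dex and 4.75% to 11.3% in I/R.

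Dvl1 (chromosome 4, 155931859 to 155943760) had 156, 148 and 143 CPM in I/R + Dex and 155, 160.1 and 156 CPM in I/R. Only 1 I/R + Dex library reached the I/R range, and the log2 fold change was -0.07 with a 95% interval from -0.27 to 0.14. Dvl3 (chromosome 16, 20335814 to 20352760) had 64.6, 61.3 and 59.5 CPM in I/R + Dex and 64.0, 52.0 and 97.4 CPM in I/R. I/R replicate 3 stood apart from the other 5 libraries, and the log2 fold change of -0.20 had an interval from -0.75 to 0.35. Without that library it was 0.10.

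Dvl2 (chromosome 11, 69891443 to 69903127) had 32.1, 26.1 and 24.8 CPM in I/R + Dex and 26.8, 32.3 and 14.6 CPM in I/R. The lowest library was I/R replicate 3, the one that was highest for Dvl3. The log2 fold change was 0.17 with an interval from -0.56 to 0.91, and it was -0.09 without that library. Its values are uncertain, because in the reference annotation Dvl2 shares 1151 exon bases with Acadvl on the opposite strand. Acadvl, which encodes an enzyme of fatty acid oxidation, had 76, 101 and 176 counts in I/R + Dex and 81, 217 and 118 counts in I/R, and the sources used here do not say whether the counting used strand.

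The destruction complex held the highest and nearly the lowest levels of the tested genes. Csnk1a1, which encodes the casein kinase 1 alpha that primes β-catenin for further phosphorylation, averaged 167 ± 15.3 FPKM in I/R + Dex and 154 ± 23.8 FPKM in I/R (SD, n = 3 each). Axin1, the scaffold of the complex, came second of the 31 with 73.2 ± 4.11 FPKM in I/R + Dex and 66.4 ± 3.67 FPKM in I/R. Gsk3b averaged 24.3 ± 2.27 FPKM in I/R + Dex and 23.4 ± 3.31 FPKM in I/R, and Apc averaged 7.19 ± 0.716 FPKM in I/R + Dex and 6.28 ± 1.83 FPKM in I/R. Gsk3a averaged 6.58 ± 0.628 FPKM in I/R + Dex and 6.24 ± 2.29 FPKM in I/R. Btrc was at 1.5 ± 0.301 FPKM in I/R + Dex and 1.97 ± 0.0336 FPKM in I/R. Levels of genes with several transcripts depend on whether gene FPKM or summed transcript FPKM are used. With transcript FPKM summed, Csnk1a1 averaged 636 FPKM over all libraries, Wls 83.6, Axin1 70.1, Apc 24.9 and Btrc 9.86, so that Wls stood above Axin1.

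Csnk1a1 on chromosome 18 had 1593, 1859 and 1786 CPM in I/R + Dex and 1397, 1863 and 1598 CPM in I/R. The I/R + Dex values lay within the range of I/R, and the log2 fold change was 0.11 with a 95% interval from -0.17 to 0.40.

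Axin1 (chromosome 17, 26357662 to 26414785) had 267, 277 and 292.5 CPM in I/R + Dex and 266, 262 and 238 CPM in I/R. Every I/R + Dex value lay above every I/R value, the closest pair being 266.7 CPM in I/R + Dex and 265.7 CPM in I/R. The log2 fold change of 0.13 had the narrowest interval of the 19 genes, from -0.06 to 0.32 (edgeR unadjusted p of 0.143, adjusted p of 1.0). Of the 4114 counts on transcripts assigned to Axin1, 4113 lay on a single coding one, ENSMUST00000074370. That was also the tested transcript with the lowest unadjusted p of the 31 tested from these genes, 0.14 with a log2 fold change of 0.14.

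Gsk3b (chromosome 16, 37909363 to 38066446), the kinase that phosphorylates β-catenin after casein kinase 1, had 263, 237 and 214 CPM in I/R + Dex and 216, 266 and 210.4 CPM in I/R. The groups overlapped, and the log2 fold change of 0.05 had an interval from -0.25 to 0.35. Its paralogue Gsk3a had 45, 44 and 50 counts in I/R + Dex and 49, 33 and 64 counts in I/R, and a log2 fold change of 0.07. By gene FPKM, Gsk3b made up 75.3% to 81.7% of both kinases in I/R + Dex and 71.7% to 87.5% in I/R. Apc, the large scaffold that binds β-catenin, had 332, 239 and 279 counts in I/R + Dex and 208, 265 and 351 counts in I/R, and its log2 fold change was 0.19 (95% interval -0.30 to 0.68). Without I/R replicate 3 it was 0.45, with an unadjusted edgeR p of 0.0232 and an adjusted p of 0.997, and without I/R replicate 1 it was 0.04.

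Btrc encodes β-TrCP, the substrate receptor of the ubiquitin ligase that recognises phosphorylated β-catenin, and lies on chromosome 19 at 45352190 to 45518452. Its counts were 53, 58 and 73 in I/R + Dex and 90, 96 and 87 in I/R, or 25.2 ± 4.84 CPM in I/R + Dex and 33.5 ± 0.948 CPM in I/R (SD, n = 3 each). The I/R libraries lay within 2 CPM of one another, and all 3 I/R + Dex libraries were below them, the nearest at 30.2 CPM. The log2 fold change was -0.41, with a 95% interval from -0.89 to 0.08, an unadjusted edgeR p of 0.0885 and an adjusted p of 1.0. DESeq2 gave the same fold change with an unadjusted p of 0.216. Leaving out single libraries and using other settings moved the fold change between -0.55 and -0.26, with unadjusted p values down to 0.0471.

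The counts of Btrc were divided between a coding transcript and one with a retained intron. ENSMUST00000065601, the coding one, had 12, 14 and 67 counts in I/R + Dex and 82, 63 and 72 counts in I/R. ENSMUST00000225662, with the retained intron, had 37, 43 and 5 counts in I/R + Dex and 7, 21 and 11 counts in I/R. I/R + Dex replicates 1 and 2 thus had most Btrc counts on the retained-intron form, whereas I/R + Dex replicate 3 resembled the I/R libraries. The log2 fold changes were -1.07 with a 95% interval from -2.98 to 0.84 for the coding form and 1.3 with an interval from -0.88 to 3.49 for the other, with edgeR unadjusted p values of 0.212 and 0.189 and an adjusted p of 1.0 for both.

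Across all 31 genes 62 transcripts had a count, and 31 transcripts of the 19 tested genes were tested. None of the 31 passed the threshold in edgeR or DESeq2, and none had an unadjusted p under 0.05 in edgeR. DESeq2 gave no p for Csnk1a1 ENSMUST00000170862, which therefore could not pass there. Over all 9882 tested transcripts edgeR called 0.0%, and 2.92% had an unadjusted p under 0.05. The log2 fold changes of the 31 had a median of 0.04, with 17 above 0 and 14 below. The groups did not overlap for 1 of the 31, Axin1 ENSMUST00000074370, beside 9.68% of all tested transcripts. For 7 tested genes, 6 of them Frizzled receptors, all counts lay on a single transcript, the other being Dvl2. In 18 of the 19 genes the leading transcript held at least 66.2% of the gene's counts, the exception being Csnk1a1.

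Where not given above, the leading transcripts, all coding, were ENSMUST00000079362 of Apc with 78.3% of its counts, ENSMUST00000032322 of Lrp6 with 97.2%, ENSMUST00000171572 of Dvl3 with 93.6%, ENSMUST00000071739 of Gsk3a with 97.5%, ENSMUST00000023507 of Gsk3b with 99.8% and ENSMUST00000068952 of Wls with 99.5%. Their log2 fold changes were 0.18 for Apc, -0.09 for Lrp6, -0.24 for Dvl3, 0.05 for Gsk3a, 0.04 for Gsk3b and -0.09 for Wls. The sole counted transcripts were ENSMUST00000054294 of Fzd1, ENSMUST00000057893 of Fzd2, ENSMUST00000131309 of Fzd3, ENSMUST00000058755 of Fzd4, ENSMUST00000063982 of Fzd5, ENSMUST00000114246 of Fzd7 and ENSMUST00000190940 of Dvl2. Their counts were those of the genes, but they were fitted separately, among all transcripts. The Fzd5 transcript had the next lowest p after that of Axin1, an unadjusted edgeR p of 0.154, and its log2 fold change was 0.66.

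Csnk1a1 showed how unevenly counts were divided. ENSMUST00000170862, the only counted transcript with an alternative exon of 84 bases, had 397, 2578 and 2559 counts in I/R + Dex and 302, 2984 and 323 counts in I/R. Its other 6 transcripts together had 3723, 1760 and 1764 counts in I/R + Dex and 3341, 2496 and 3845 counts in I/R. Libraries with few counts on the form with the exon were thus present in both groups. ENSMUST00000163205, a coding form without the exon, had 431, 612 and 675 counts in I/R + Dex and 2236, 1178 and 314 counts in I/R, and a log2 fold change of -0.96 with an unadjusted edgeR p of 0.232. ENSMUST00000115246 had only 3, 54 and 44 counts in I/R + Dex and 12, 0 and 7 counts in I/R, and its log2 fold change was 2.54 (edgeR unadjusted p of 0.155).

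The coefficient of variation between libraries of a group lay between 25.7% and 84.2% in I/R + Dex and between 57.2% and 124% in I/R for the 7 Csnk1a1 transcripts. For the gene as a whole it was 7.88% in I/R + Dex and 14.4% in I/R. Over the 19 tested genes the median was 8.96% in I/R + Dex and 14.4% in I/R, beside medians over all tested genes of 18.2% in I/R + Dex and 17.3% in I/R.

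**Figure D4:**
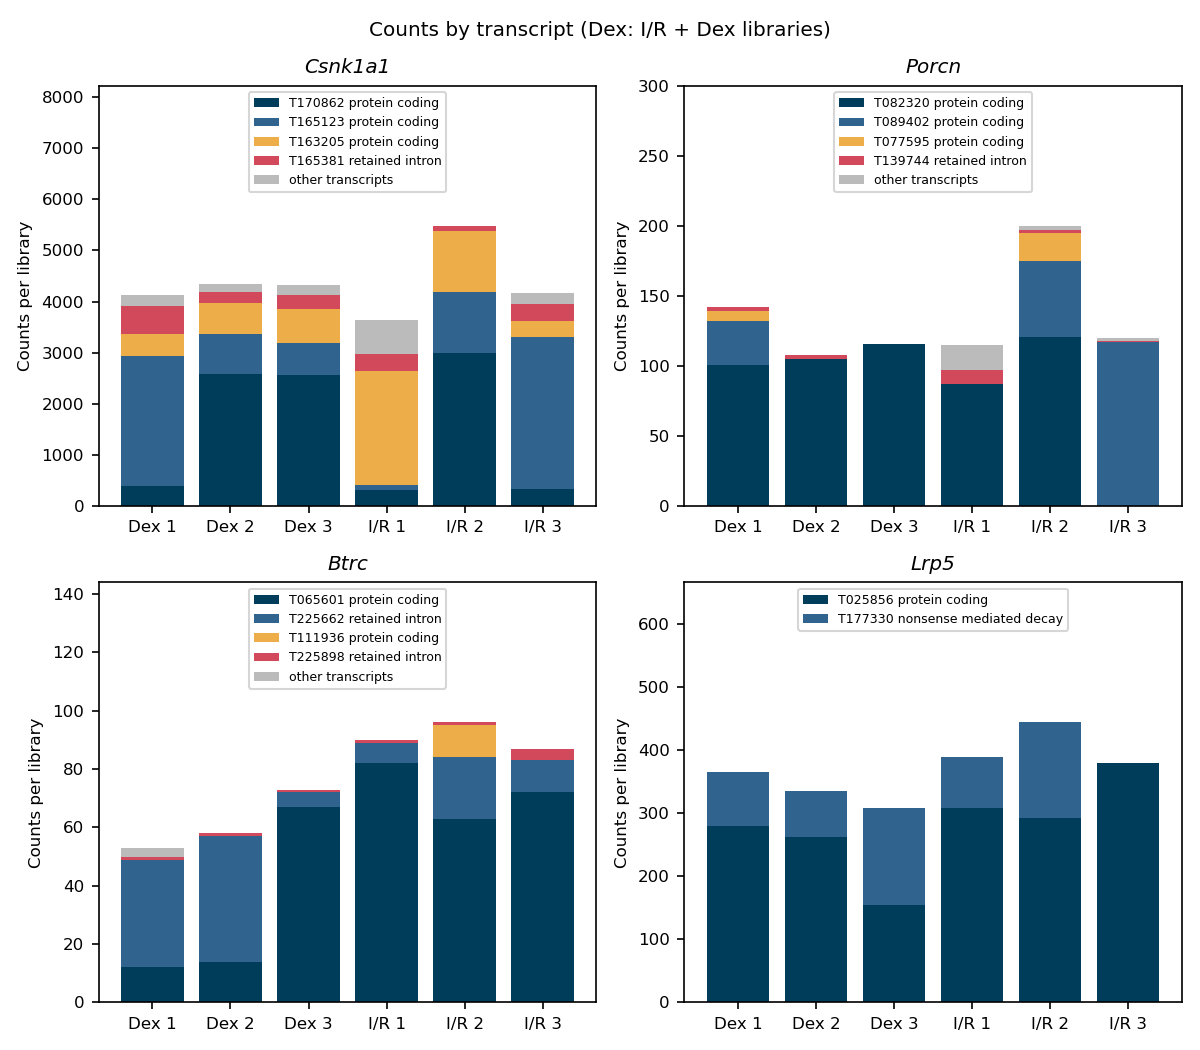
Counts per library by transcript for Csnk1a1, Porcn, Btrc and Lrp5, with the I/R + Dex libraries left of the I/R libraries; colours are Ensembl transcripts with their annotated type, and the height of a bar is the gene count. The make-up of the bars differs between libraries of the same group, as in I/R replicate 3 for Porcn and I/R + Dex replicate 3 for Btrc.

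The authors' deposited table of the comparison listed 42 transcripts of 23 of these genes, and none was marked as significant there, beside 0.577% of the 18021 listed transcripts. Of the 42, 4 had an unadjusted p under 0.05 in the authors' deposited table. Among these, the Fzd8 transcript had 0.0239 and a retained-intron transcript of Apc, ENSMUST00000170195, had 0.0315. Their adjusted p values there were 0.617 and 0.713, and the smallest of the 42 was 0.344. That value belonged to a retained-intron transcript of Dvl1, ENSMUST00000141539. Its log2 ratio in the authors' deposited table was 5.58 and its unadjusted p 0.00724, the lowest of the 42. It had 70, 0 and 30 counts in I/R + Dex and 1, 1 and 0 counts in I/R. Another Dvl1 transcript with a retained intron, ENSMUST00000156997, had 2, 1 and 1 counts in I/R + Dex and 0, 61 and 41 counts in I/R. Its unadjusted p in the authors' deposited table was 0.011. Both were chosen after their values were seen, and each had a library at or near 0 in both groups. The coding transcript ENSMUST00000030948 held 85.5% of the Dvl1 counts, at 307, 327 and 290 in I/R + Dex and 383, 389 and 340 in I/R, and its log2 fold change was -0.11 (95% interval -0.42 to 0.20).

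A further 77 genes of the pathway were looked at in 6 lists, of which 23 could be tested, 24 were below the filter and 30 had 0 counts. None was called by edgeR, beside 0.0675% of all tested genes. An unadjusted edgeR p under 0.05 was held by 1, beside 3.39% of all tested genes. That leaves out Csnk1g2, whose p was 0.05 after rounding. The median log2 fold change was -0.02, with 11 above 0 and 12 below. None of the other 11 ligand genes and none of 14 secreted antagonists, of which 12 had 0 counts, could be tested, and all 19 ligand genes together held 26 counts in I/R + Dex and 53 counts in I/R. Of 7 other receptor genes only Ryk was tested, with a log2 fold change of -0.14 (95% interval -0.58 to 0.30). In the R-spondin module, which controls how many Frizzled proteins stay at the surface, Rspo3 had 0.16 (-0.50 to 0.82) and Znrf3, a ubiquitin ligase that removes Frizzled, 0.20 (-0.32 to 0.72). Of 12 genes of the planar polarity branch 4 were tested, and the lowest p belonged to Celsr3 with 0.13 (-0.50 to 0.77) and Daam1 with -0.08 (-0.50 to 0.33).

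Among the other genes of the destruction complex and its regulators, 16 of 24 were tested. Csnk1e, the casein kinase 1 epsilon that phosphorylates Dishevelled, had 113, 103 and 195 counts in I/R + Dex and 187, 272 and 272 counts in I/R. I/R + Dex replicate 3 reached the I/R range, and the log2 fold change of -0.67 had a 95% interval from -1.32 to -0.02, an unadjusted edgeR p of 0.0459 and an adjusted p of 1.0. Csnk1g2 is of the gamma subfamily known to phosphorylate LRP6 in frog embryos and cultured cells. It had 7, 13 and 4 counts in I/R + Dex and 8, 50 and 35 counts in I/R, so that I/R replicate 1 lay within the I/R + Dex range. Its log2 fold change was -1.74 (95% interval -3.48 to -0.0, adjusted p of 1.0 in edgeR). The unadjusted p was at the limit in edgeR, 0.05, and 0.0396 in DESeq2.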

How the data were processed

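Gene and transcript counts and FPKM were deposited by the authors, per the file headers. The submitters' processing notes name GRCm39 as the build and list DESeq2 1.30, HISAT2 2.1.0 and StringTie 2.2.4 without roles, and the sources used here do not describe counting, strand or the split of reads between transcripts. The log2 fold changes, p-values and adjusted p-values per transcript in the authors' deposited table were taken as given.

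Groups and replicate numbers came from the labels. The test was that of edgeR 4.0.16 under R 4.3.3 (filterByExpr, TMM, robust quasi-likelihood test, Benjamini-Hochberg over all tested features, threshold 0.05), on 7412 genes and 9882 transcripts. The procedure was also run on simulated counts with changes of 2-fold or more in either direction, which says nothing about smaller changes. CPM are counts over the library total. Intervals are 95% intervals and floors are 3 counts, and floors cover counting error only. Levels of genes were ranked by the deposited FPKM. Alternatives were other scalings and filters, DESeq2 1.42.0, limma 3.58.1 (voom, and trend on log2 of FPKM plus 1 or 0.1), a block for the replicate number, and fits without each library.

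The 31 genes, the other lists and the tests were chosen with earlier results of these data known, so p-values were adjusted over all features only. Of 156 symbols, 82 were matched through the authors' table and 74 through reference names. All 31 genes are accounted for. Values per library are given for genes past the threshold, in each of 7 roles for the 3 tested genes with the highest FPKM and the 2 with the lowest p, and for sparse genes with a count in at least 4 libraries or groups that do not overlap. In other lists the 2 with the lowest p are named, and of transcripts the leading one per gene and the 6 with the lowest p. Near-identical copies were sought with blastn 2.17.0 in GENCODE vM21 transcripts (90% identity over 200 bases and 50% of the transcript), and the reference on GRCm38 gave names, overlaps and sequences, while coordinates are those of the authors' table. Same-numbered libraries had correlations of deviations of 0.023, -0.01 and -0.004, so numbers were not taken to pair samples.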

Additional observations from a re-analysis of the deposited data

How the results depend on the processing

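Under every alternative run, 0 of the tested genes of the 31, 0 of the other pathway genes and 0 transcripts of the 31 genes passed the threshold. DESeq2 gave no adjusted p for some sparse genes and transcripts, among them the genes Lgr4 and Axin2, so these could not pass there. Of 285 fold changes of the 19 tested genes under alternatives, 267 kept their direction and 18 reversed, in 9 genes, and the smallest adjusted p was 0.858. All but 1 of the reversals came from leaving out a single library, the exception being Fzd1 at -0.005 with upper-quartile factors. Over all alternatives the fold changes ran from -0.05 to 0.07 for Fzd1, -0.15 to 0.15 for Fzd4, -0.03 to 0.23 for Fzd7, -0.02 to 0.17 for Gsk3b, -0.11 to 0.03 for Lrp6, -0.20 to 0.15 for Porcn, -0.18 to 0.35 for Gsk3a, -0.09 to 0.43 for Dvl2 and -0.38 to 0.10 for Dvl3. The median over the tested genes, 0.00, lay between -0.02 and 0.11 with single libraries left out, the highest without I/R replicate 2. Over all genes, edgeR called 5, DESeq2 17, limma voom 0, and limma on log2 of FPKM plus 1 and plus 0.1 called 8 and 3. Without single libraries it was 0 to 4 genes, with 0 without I/R replicate 2. Over all transcripts, where edgeR called 0, it called 12 without a filter and DESeq2 called 73, and 0 to 3 were called with single libraries left out. The causes were not tested.

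With the replicate number as a block, 0 genes were called over all genes, 0 of the 31 genes and 0 transcripts, and the median of the tested genes was 0.00. The correlations of deviations gave no sign that the numbers pair the samples, but values this small cannot show that no pairing was made. I/R + Dex replicate 1 correlated best with its own number, at 0.023. I/R + Dex replicate 2 correlated best with I/R replicate 3, at 0.03, and I/R + Dex replicate 3 with I/R replicate 2, at 0.006. No gene of the 31 had a near-identical copy by the rule used, so adding copies gave no separate value. Depth limits the sparse genes most: 3 counts were worth 1.02 to 1.29 CPM, and the interval of Fzd5 reached beyond a 2-fold change.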

Other observations

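Outside the 31 genes and chosen after its values were seen, Lgr4, a receptor for R-spondins that raises the number of Frizzled proteins at the surface, had 0 counts in each I/R + Dex library and 14, 10 and 7 counts in I/R. It was below the filter. Its mean of 3.82 CPM in I/R was 3.11 times the mean floor of 3 counts in the I/R + Dex libraries, 1.23 CPM. That ratio takes the I/R mean as exact, so it is not a lower limit of the fold. Without a filter edgeR gave an unadjusted p of 0.0022 and an adjusted p of 0.858, and with a filter of 1 CPM in 3 libraries an adjusted p of 1.0. DESeq2 gave Lgr4 an unadjusted p of 0.00162 and no adjusted p. Of the 9497 genes below the filter with a count, 80, or 0.842%, had 0 counts in every I/R + Dex library and a count in every I/R library. Axin2, a scaffold gene that β-catenin and TCF are known to induce, was chosen in the same way and had 0 counts in each I/R + Dex library and 3, 4 and 3 counts in I/R. Its groups did not overlap, no fold can be given at this depth, and edgeR gave an unadjusted p of 0.0604 and an adjusted p of 0.858 without a filter, and 0.0379 and 1.0 with the filter of 1 CPM. Lgr5, a relative of Lgr4, chosen in the same way, had 2, 0 and 0 counts in I/R + Dex and 6, 0 and 0 counts in I/R.

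Prickle3, a planar polarity gene also chosen after its values were seen, had 0 counts in each I/R + Dex library and 17, 17 and 0 counts in I/R, so its groups overlapped. Dkk3, one of the few secreted antagonist genes with counts and chosen likewise, had 6, 0 and 4 counts in I/R + Dex and 6, 14 and 10 counts in I/R. Both were below the filter.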
